A study of Homo sapiens with 18 samples.

Results

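The genes described here are those that the authors listed as changed both by fenofibrate and by fenofibrate given together with ezetimibe. Matched on gene identifier, 65 genes were in both lists, of 102 genes listed with fenofibrate, 3508 listed with the combination and 3647 listed in the whole series. For these 65 genes the values with both drugs were set against those with fenofibrate alone, which shows what the addition of ezetimibe changed. Of the 65, 62 are protein coding, 2 are pseudogenes and 1 is an antisense RNA.

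The cells are Cal51, an established line of human breast cancer, and RNA was sequenced in 18 libraries. Of these, the 6 from PKM2 knockout cells and their control are not analysed here. The groups compared are cells kept for 8 h in DMSO (the solvent control), in fenofibrate, or in fenofibrate plus ezetimibe, called the combination below, with 3 libraries each. A group in ezetimibe alone, also 3 libraries, is given beside them where its table lists the gene. The labels give no dose, number the replicates 1 to 3 and do not say that they were separate cultures, so the p-values measure the spread between these libraries, which may be technical.

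Fenofibrate is a fibrate used to lower blood lipids and an activator of the nuclear receptor PPARα, which turns on genes of fatty acid oxidation. Ezetimibe blocks NPC1L1, the transporter that takes up sterols in the gut. When sterols in the cell run low, the transcription factor SREBP2 turns on the enzymes of cholesterol synthesis and the uptake of sterols. When amino acids run short or proteins misfold, the transcription factor ATF4 turns on a set of genes for amino acid supply and stress, among them DDIT3, ATF3, TRIB3 and ASNS.

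Values are normalised read counts, the authors' read counts corrected for library size, and the fenofibrate values were raised to the scale of the combination table through the 3 DMSO libraries that both tables hold (ratio 1.024 to 1.029 per library, mean 1.026). Summed over the 65 genes, the libraries held 14285 to 14778 normalised counts in DMSO, 32853 to 33655 with fenofibrate and 94610 to 104634 with the combination. The total depth of the libraries is unknown, and 64 of the 65 genes had a mean of at least 50 over the 6 treated libraries. The tables hold only called genes. None of 3 breast epithelial markers and none of 13 markers of other cells was among the 65, so the labelled cell type could not be checked on them, and of the latter COL1A1 and PDGFRB were listed as lower with the combination. Their part in the results was not tested.

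Most of the 65 genes were higher with the combination than with fenofibrate alone, and most of these had already been raised by fenofibrate. Of all 102 genes listed with fenofibrate, 93 had been raised by it, so the latter does not set these genes apart. The median difference, combination minus fenofibrate, was 1.07 on the log2 scale, or 2.10-fold, and the largest difference was 4.36 (ATF3). With limma and Benjamini-Hochberg adjustment over the 65 genes, 50 genes (76.9%) had an adjusted p under 0.05. Of these, 44 (67.7%) were higher with the combination and 6 (9.23%) were lower. Among the 6 lower genes, 3 had fenofibrate and the combination on opposite sides of DMSO, as had ARRDC4 among the higher genes. For these the choice of genes built in the gap, so their calls only describe it. In exactly the 50 called genes the 3 combination libraries lay all above or all below the 3 fenofibrate libraries, and in the other 15 the groups overlapped. The difference was above 1 in 33 genes, above 2 in 12 and under -1 in 5. In bulk RNA of this kind, a change in the number of expressing cells and one in the RNA per cell cannot be told apart.

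The choice of genes shapes this split. A gene entered only if it differed from DMSO by more than 1 on the log2 scale, with an adjusted p under 0.05, in both of the authors' tables. A gene that ezetimibe brought back near its DMSO level could therefore not be among the 65, and 37 genes listed with fenofibrate have no combination value. Just inside the threshold, the authors' deposited table of the combination gave log2 fold changes of 1.01 for ARRDC4, 1.02 for CLCN6 and 1.03 for HSD17B7. In the authors' deposited table of fenofibrate, TNFRSF14 and CXCL2 both stood at 1.01. Genes just outside have no values in these tables. For the 65 genes, a gap from DMSO with either treatment follows from this choice.

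**Figure D1:**
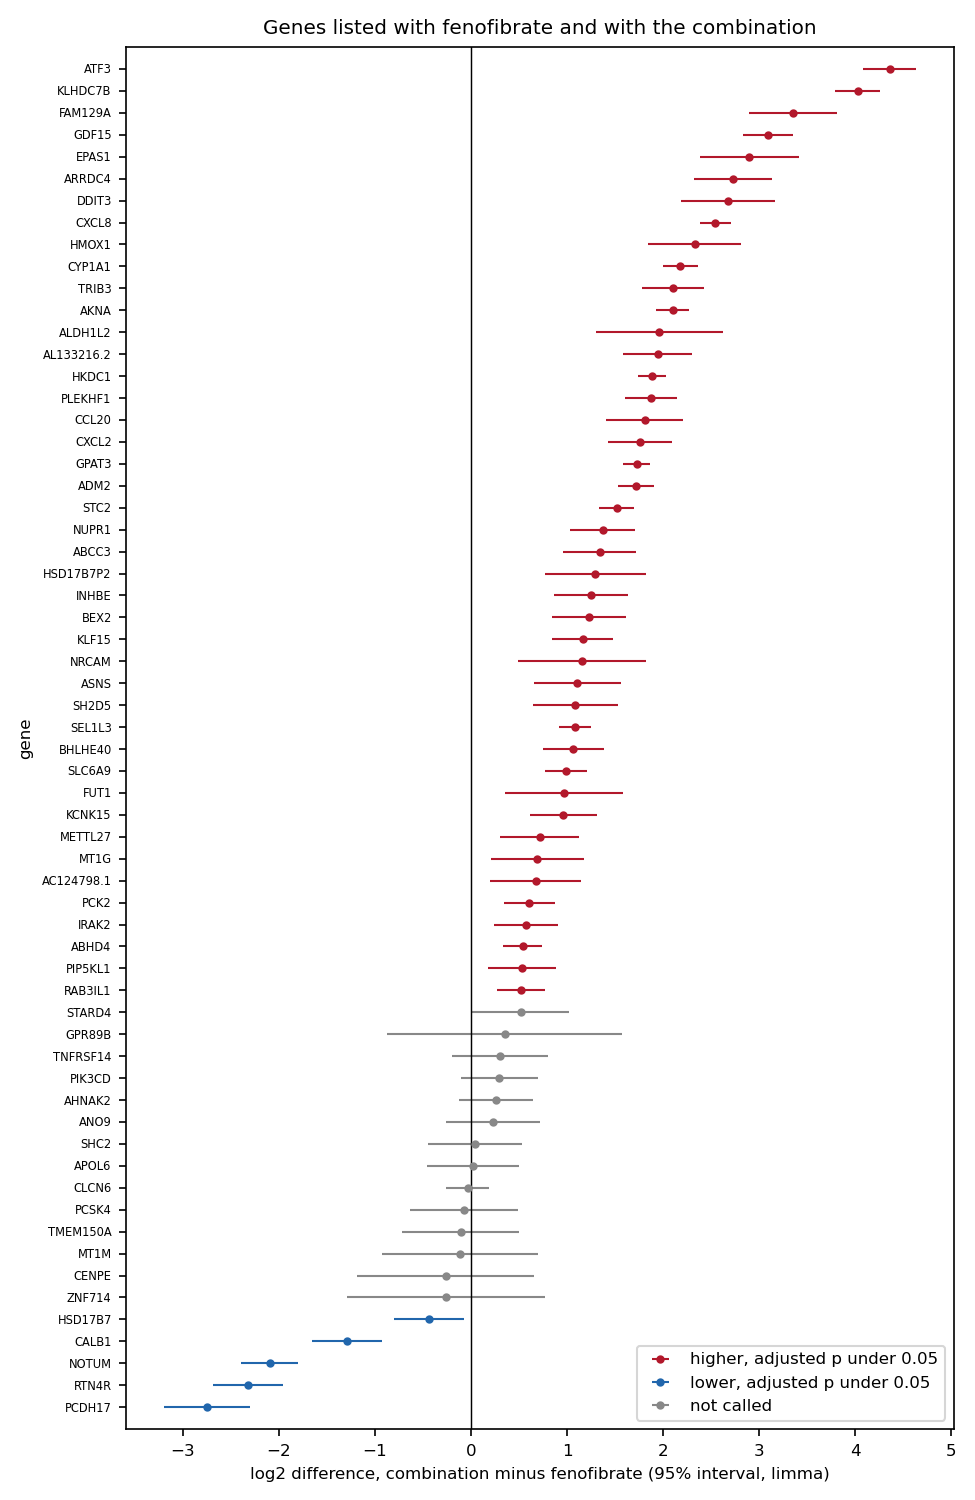
The log2 difference between the combination and fenofibrate (x axis) for 62 of the 65 genes (y axis), with points for the estimate and lines for its 95% interval by limma. Red marks the 43 of these called higher, blue the 5 called lower and grey the 14 not called, and the values run from -2.75 for PCDH17 to 4.36 for ATF3.

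The 9 genes of ATF4 and the amino acid response in both tables all rose further when ezetimibe was added to fenofibrate. All 9 members of that 36-gene list that fenofibrate had raised were also listed with the combination, beside 65 of 102 (63.7%) over all genes of the fenofibrate table. All 9 were called higher with the combination than with fenofibrate, beside 67.7% of the 65 genes. Their log2 differences were 1.11 to 4.36 with a median of 1.96, beside 1.07 over all 65 genes. In order of size they were ATF3, GDF15, DDIT3, TRIB3, ALDH1L2, STC2, NUPR1, INHBE and ASNS.

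ATF3 (chr1:212565334-212620777 in hg38, plus strand), a stress-induced transcription factor of the bZIP family, had 61.5, 51.4 and 60.8 normalised counts in the DMSO libraries. It had 137, 152 and 123 with fenofibrate and 3148, 2684 and 2649.7 with the combination. The combination libraries lay far above the fenofibrate libraries, 20.6-fold higher in the mean. A gap from DMSO with each treatment was required by the choice of genes. The log2 difference between combination and fenofibrate was 4.36 ± 0.12 (SE; limma, adjusted p = 5.05e-08).

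DDIT3 (chr12:57516588-57521737, minus strand), which encodes the pro-death transcription factor CHOP, had 108, 122 and 141 in DMSO. It had 239, 362 and 240.2 with fenofibrate and 2215, 1497 and 1646 with the combination. The combination libraries were 6.37-fold higher than the fenofibrate libraries, without overlap (log2 difference 2.67 ± 0.21, SE; limma, adjusted p = 1.14e-05). DDIT3 overlaps MARS and MBD6 on the other strand, and the sources used here do not give whether the counting used strand. TRIB3, a pseudokinase induced by CHOP and ATF4, was among the most abundant of the 65 and went from 2692, 3468 and 2773 with fenofibrate to 14945, 11289 and 12169 with the combination, a 4.30-fold rise.

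Of the secreted proteins on the list, GDF15, a stress cytokine that lowers appetite, reached the highest level. It had 735, 651 and 616 in DMSO, 1701, 1893 and 1739 with fenofibrate and 17488, 13305 and 14919.5 with the combination. The combination libraries lay above all fenofibrate libraries, 8.57-fold higher in the mean (log2 difference 3.09 ± 0.11, SE; limma, adjusted p = 1.49e-07). The secreted glycoprotein STC2 rose 2.87-fold, from 1718 ± 80.2 to 4929.6 ± 343 normalised counts (SD, n = 3), and INHBE, a subunit of activin E, rose 2.38-fold.

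Among the rest of the list, ASNS, which makes asparagine, rose least. Its fenofibrate libraries had 87.2, 67.5 and 87.0 and its combination libraries 142, 191 and 192, a 2.18-fold rise (log2 difference 1.11 ± 0.19, SE; limma, adjusted p = 0.00106). The mitochondrial folate enzyme ALDH1L2 was 3.98-fold higher but varied more, at 594, 394 and 608 with fenofibrate and 1368, 2729.8 and 2254 with the combination. Its lowest combination library, replicate 1, was still above every fenofibrate library. NUPR1, a small stress-induced nuclear protein, rose 2.62-fold. A further 16 genes of the ATF4 list were listed with the combination but not with fenofibrate, 15 higher and 1 lower (JDP2), with a median log2 fold change against DMSO of 1.66 in the authors' deposited table. These have no fenofibrate value. The share of higher genes over all 3508 genes listed with the combination is not given here, so the counts are a description only.

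The promoters of 44 of the 65 genes were found by symbol in the RefSeq table of GRCh38.p14, with 60 windows at start sites. Only the 250 bases before the start site were searched, here and in all other windows. TGATGNAA, the composite element bound by ATF4 with C/EBP proteins, was in 4 of the 60 windows on either strand (6.67%; genes ASNS, ATF3, FUT1 and KLHDC7B), and in 3.14% of all 35116 windows. The E-box CACGTG, bound by basic helix-loop-helix factors, was in 6 windows (10.0%), and in 6.34% of all. The AP-1 site TGANTCA was in 5 (8.33%, against 6.57%), and the sterol element TCACNCCA in 2 (3.33%, against 3.20%), neither in a gene of the sterol list. A match is a run of letters and not a shown binding site. Upstream sequences are shown for ATF3 and KLHDC7B, the 2 genes with the largest rise, and for ARRDC4. ARRDC4 moved in opposite directions with the 2 treatments, and each of these genes holds a match. Other genes with a match, ASNS and FUT1 among them, are not shown. Each sequence shown was cut to the stretch around the match that holds no annotated exon. All are on the plus strand, read 5′ to 3′, at chr1:212565157-212565333, chr22:50545649-50545890 and chr15:97960453-97960697. Capitals mark the match, TGATGNAA for ATF3 (in 1 of its 2 windows), the same element on the other strand for KLHDC7B, and CACGTG for ARRDC4. The ARRDC4 window also holds an AP-1 match, left in lower case, which does not overlap the E-box.
ATF3: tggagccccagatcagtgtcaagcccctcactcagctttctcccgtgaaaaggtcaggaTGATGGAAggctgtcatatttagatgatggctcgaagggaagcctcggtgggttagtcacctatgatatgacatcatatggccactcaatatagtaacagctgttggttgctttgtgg
KLHDC7B: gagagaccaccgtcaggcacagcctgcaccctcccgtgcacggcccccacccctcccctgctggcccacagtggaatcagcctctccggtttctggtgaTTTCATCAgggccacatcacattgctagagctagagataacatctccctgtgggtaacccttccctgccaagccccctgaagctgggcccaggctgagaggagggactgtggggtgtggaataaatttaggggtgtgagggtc
ARRDC4: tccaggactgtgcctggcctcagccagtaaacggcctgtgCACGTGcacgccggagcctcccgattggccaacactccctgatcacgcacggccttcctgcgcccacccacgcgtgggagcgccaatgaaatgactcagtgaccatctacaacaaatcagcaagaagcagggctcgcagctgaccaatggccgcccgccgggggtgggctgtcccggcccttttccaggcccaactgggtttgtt

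KLHDC7B, whose protein has kelch repeats, was nearly silent in DMSO and had the second largest rise when ezetimibe was added. Its DMSO libraries had 8.79, 18.4 and 4.27 normalised counts, its fenofibrate libraries 115, 108 and 121 and its combination libraries 1995, 1776 and 1853. Combination was 16.4-fold above fenofibrate, with no overlap (log2 difference 4.02 ± 0.10, SE; limma, adjusted p = 5.05e-08). FAM129A, a stress-induced gene also called NIBAN1, rose 10.2-fold, from 527, 366 and 507 to 3701, 5619.8 and 5010.2.

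The chemokines CXCL8, CCL20 and CXCL2 rose as well. They are the 3 members of the list of NF-kB targets, chemokines and cytokines in both tables, and all 3 were called higher with the combination (median log2 difference 1.81), beside 67.7% of all 65 genes. CXCL8, which draws neutrophils, had 316, 302 and 377 in DMSO, 703, 655 and 726 with fenofibrate and 3965, 4158 and 4027 with the combination. Its replicates were close together and the combination was 5.83-fold above fenofibrate (log2 difference 2.54 ± 0.07, SE; limma, adjusted p = 5.05e-08). The chemokine CCL20 rose 3.52-fold and CXCL2 3.41-fold.

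HMOX1 and ABCC3 of the NRF2 list, CYP1A1 of the aryl hydrocarbon receptor list, and EPAS1 and BHLHE40 of the hypoxia and glycolysis list were also called higher, again beside 67.7% of all 65 genes. The third hypoxia gene listed with fenofibrate, PFKFB4, was not listed with the combination. Further members of these lists, without a fenofibrate value, went both ways with the combination in the authors' deposited table: 10 higher and 1 lower for NRF2, 1 and 1 for the aryl hydrocarbon receptor, and 5 and 3 for hypoxia. Here too no share over all genes listed with the combination is given, so the counts are a description only. HMOX1, which breaks down heme and is on the NRF2 and ferroptosis lists, had 27.4, 26.6 and 30.9 in DMSO, 84.1, 117 and 80.1 with fenofibrate and 549, 396 and 470.2 with the combination. It rose 5.04-fold over fenofibrate, and ABCC3, an efflux transporter and the other NRF2 target in both tables, rose 2.55-fold. CYP1A1, the classic target of the aryl hydrocarbon receptor, had 149, 145 and 147 in DMSO. It had 578, 596 and 570.3 with fenofibrate and 2880.4, 2531 and 2511 with the combination. The combination libraries stood clear of the fenofibrate libraries, 4.54-fold higher in the mean (log2 difference 2.18 ± 0.08, SE; limma, adjusted p = 1.49e-07). EPAS1, the hypoxia factor HIF-2α, rose 7.38-fold, from 136, 90.4 and 152 to 784, 988 and 1019.9, and the clock-linked repressor BHLHE40 rose 2.09-fold.

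Several genes outside the lists, chosen after their values were seen, also rose by more than 3-fold. They include HKDC1, a hexokinase relative (3.70-fold), and GPAT3, which starts triglyceride synthesis (3.30-fold). ADM2, a peptide hormone, rose 3.30-fold, AKNA, a protein of the centrosome, 4.28-fold and PLEKHF1, a lysosomal adaptor, 3.66-fold. The glycine transporter SLC6A9 rose 2.00-fold and the transcription factor KLF15 2.25-fold. PCK2, the mitochondrial enzyme that makes phosphoenolpyruvate, rose 1.53-fold, and IRAK2, a kinase-like protein of interleukin signalling, by 0.57 on the log2 scale. The other called rises had log2 differences from 1.23 (BEX2) down, through NRCAM, SH2D5, SEL1L3, FUT1, KCNK15, METTL27, MT1G and the antisense AC124798.1, to 0.54 (ABHD4). The smallest called rises were those of RAB3IL1 (log2 difference 0.52 ± 0.11, SE) and PIP5KL1 (0.53 ± 0.15, SE). AL133216.2 and HSD17B7P2 are pseudogenes, MT1G and MT1M are related metallothionein genes, and GPR89B has a near-identical copy. Reads may have been split between such related genes or copies, so the values of these genes are uncertain. Without fenofibrate replicate 1 the calls of PIP5KL1, MT1G and AC124798.1 were lost (adjusted p = 0.0501, 0.0521 and 0.0556 by limma). Those of MT1G and AC124798.1 were also lost without fenofibrate replicate 3 (0.0536 and 0.0530) and without combination replicate 1 (0.0536 and 0.0501), and those of AC124798.1 and PIP5KL1 with a replicate block (0.0569 and 0.0621). HSD17B7P2 was higher with the combination (1.30 ± 0.22, SE) while HSD17B7 was lower.

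**Figure D2:**
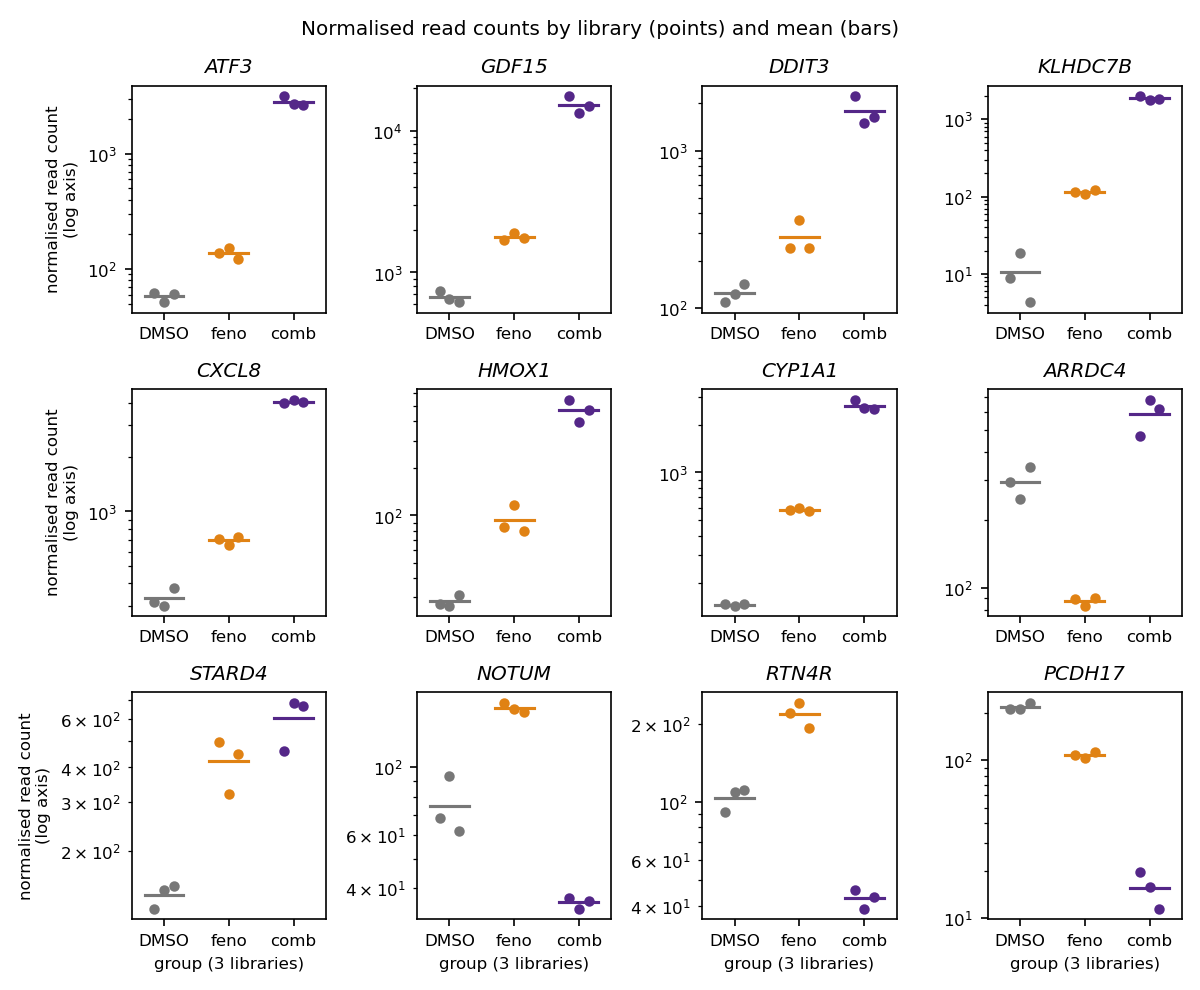
Normalised read counts (y axis, log scale) of 12 genes in the 3 DMSO, 3 fenofibrate (feno) and 3 combination (comb) libraries (x axis), with points for libraries and bars for means. In ATF3 the combination libraries lie between 2649.7 and 3148, above all fenofibrate libraries, and in RTN4R between 38.9 and 46.0, below all DMSO libraries.

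Most sterol genes that fenofibrate raised were not listed with the combination. Fenofibrate alone had raised 19 of the 30 sterol genes listed (enzymes of cholesterol synthesis and other SREBP2 targets), and 4 of the 19 (21.1%) were also listed with the combination, beside 65 of 102 (63.7%) over all fenofibrate genes. STARD4 and HSD17B7 were among these 4. None of the 4 was called higher with the combination than with fenofibrate, 2 were called lower and 2 were not called. The lower call other than that of HSD17B7 was in a gene raised by fenofibrate and lowered by the combination. The choice of genes built in that gap, so this call only describes it. The call of HSD17B7 was lost in several alternative fits, given below. Over all 65 genes, 67.7% were called higher and 9.23% lower. The median log2 difference of the 4 was -0.30, beside 1.07 over all 65, and the 4 values were spread widely around it.

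STARD4, a sterol carrier, had 495, 322 and 448 with fenofibrate and 458, 684 and 666 with the combination, against 124, 145 and 149 in DMSO. Its log2 difference was 0.52 (95% interval 0.01 to 1.02; limma, adjusted p = 0.0604), and it was the 1 uncalled gene with an unadjusted p under 0.05. Without combination replicate 1 its difference was 0.70 and without fenofibrate replicate 1 it was 0.64, with adjusted p of 0.0185 and 0.0432 by limma (0.00282 to 0.176 over all alternatives). HSD17B7, an enzyme of cholesterol synthesis, had 218, 264 and 218 with fenofibrate and 191, 167 and 159 with the combination. It was 1.36-fold lower (log2 difference -0.44 ± 0.15, SE; limma, adjusted p = 0.0317). This call was lost without any single library other than combination replicate 1 (adjusted p 0.0556 to 0.133 by limma, and 0.0138 to 0.133 over all alternatives).

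The other 15 sterol genes raised by fenofibrate were not listed with the combination, so no difference can be computed for them. Their levels with fenofibrate were up to 4.39 times those in DMSO (INSIG1). Their values below were put on the scale of the combination table with the mean ratio. INSIG1, which holds SREBP proteins in the endoplasmic reticulum, had 363, 328 and 403 in DMSO and 1644, 1500.3 and 1655 with fenofibrate. HMGCS1, an early enzyme of the pathway, had 809.9, 785 and 882 in DMSO and 3120.3, 2283 and 3140.0 with fenofibrate. SREBF2, which encodes SREBP2, had 1989.5, 2137 and 1769 in DMSO and 5182, 5032 and 5404 with fenofibrate. In each of the 3 the fenofibrate libraries were clear of DMSO, which their listing past the authors' thresholds made likely beforehand.

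NPC1L1, the target of ezetimibe, was low in both groups, at 10.8, 6.41 and 20.3 in DMSO and 43.6, 48.1 and 47.4 with fenofibrate, and was not listed with the combination. All 4 listed genes of fatty acid synthesis and desaturation (FADS2, PNPLA3, SCD and FADS1) were likewise listed with fenofibrate and not with the combination. PLA2G3, a secreted phospholipase, had the largest log2 fold change of the fenofibrate table, 3.72 in the authors' deposited table, and was not listed with the combination either. Absence from the list means a change against DMSO of 2-fold or less, or one that missed the authors' p threshold, and does not give a level. In all, 33 of the 37 genes listed with fenofibrate but not with the combination had been raised by it and 4 lowered, beside 93 raised and 9 lowered of all 102.

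A further 5 sterol genes were listed with the combination and not with fenofibrate. In the authors' deposited table NPC1, LPIN1 and CYP51A1 were higher than in DMSO, with log2 fold changes from 1.72 for NPC1 down to 1.01 for CYP51A1. In the authors' deposited table TMEM97 and ACAT2 were lower, at -1.19 and -1.25. Of the sterol genes in both tables, STARD4 (2.11) and HSD17B7 (1.03) were above DMSO in the authors' deposited table of the combination. The list thus held members in both directions with the combination, whereas its 19 listed members were all higher with fenofibrate.

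**Figure D3:**
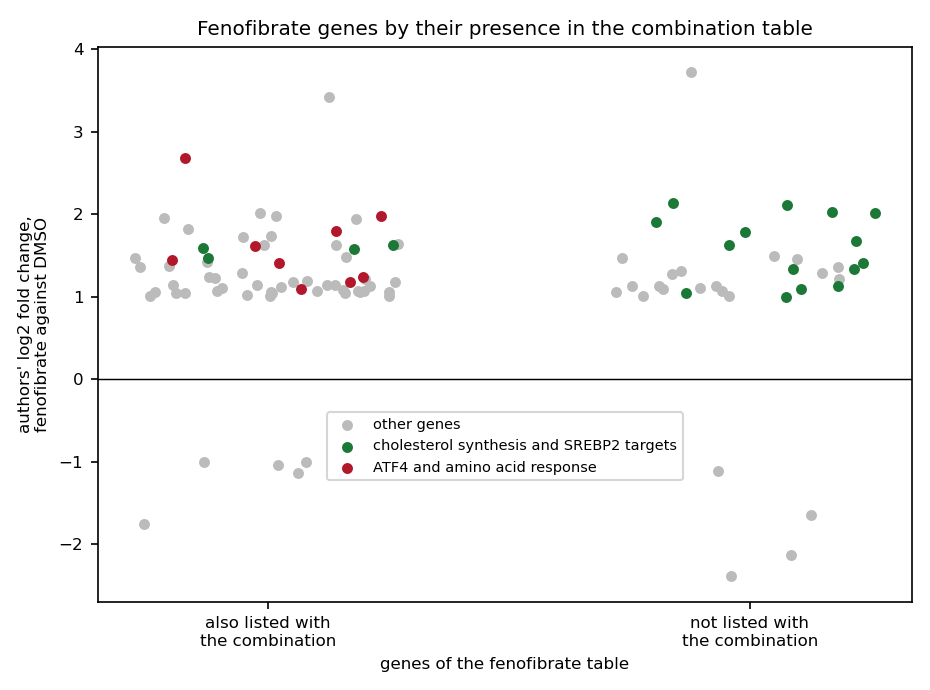
The authors' log2 fold change of fenofibrate against DMSO (y axis) for the 65 genes also listed with the combination and the 37 not listed with it (x axis, points spread sideways for legibility). Of the sterol genes (green), 4 are on the left and 15 on the right, and all 9 ATF4 genes (red) are on the left.

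In 4 genes the 2 treatments lay on opposite sides of DMSO. Of these, 3 (RTN4R and NOTUM among them) were raised by fenofibrate and lowered by the combination, and ARRDC4 was lowered by fenofibrate and raised by the combination. To be among the 65, each had to lie more than 1 from DMSO on the log2 scale with each treatment. A wide gap between the treatments was therefore built in for all 4, and their differences and p-values only describe it. RTN4R, the Nogo receptor of neurons, had 91.8, 109 and 111 in DMSO, 220.0, 240.3 and 193 with fenofibrate and 46.0, 38.9 and 43.1 with the combination. The 3 groups did not overlap, and the combination was 5.10-fold under fenofibrate (log2 difference -2.32 ± 0.15, SE; limma, adjusted p = 4.44e-06). NOTUM, an enzyme that inactivates Wnt proteins, had 68.4, 93.6 and 61.9 in DMSO, 163, 156 and 152 with fenofibrate and 37.3, 34.3 and 36.4 with the combination. Its combination libraries differed little among themselves and were 4.36-fold under fenofibrate (log2 difference -2.10 ± 0.12, SE; limma, adjusted p = 3.08e-06).

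ARRDC4 (chr15:97960698-97973838, plus strand), an arrestin-like protein that restrains glucose uptake and a target of the glucose sensor MondoA, had 294, 249 and 343 in DMSO. It had 89.2, 83.5 and 89.9 with fenofibrate and 471, 684 and 619.6 with the combination. The lowest combination library was above the highest DMSO library, and the combination was 6.76-fold above fenofibrate (log2 difference 2.73 ± 0.17, SE; limma, adjusted p = 3.82e-06). Its relative TXNIP, the other MondoA target that fenofibrate lowered (448, 433 and 428 in DMSO and 95.3, 68.7 and 85.0 with fenofibrate), was not listed with the combination. None of these 4 opposite genes was in the table of ezetimibe alone.

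**Figure D4:**
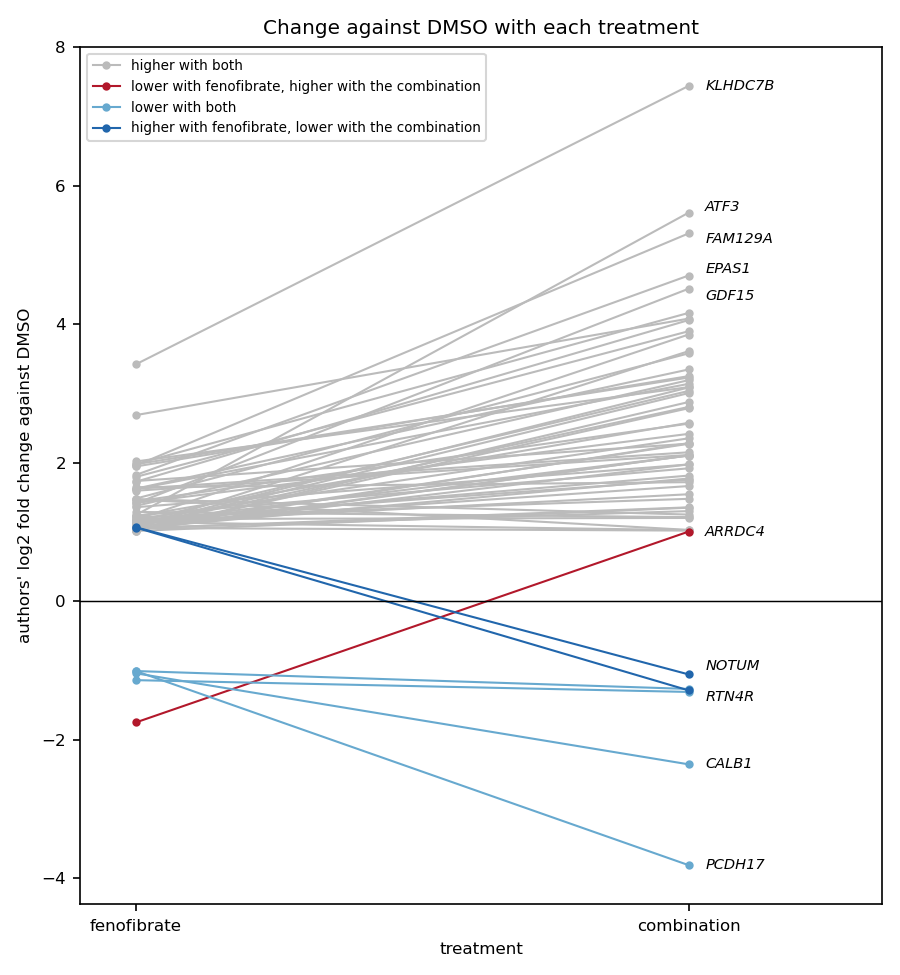
The authors' log2 fold change against DMSO (y axis) with fenofibrate and with the combination (x axis), with 1 line for each of 62 of the 65 genes. The 55 of these higher with both are grey and the 4 lower with both are light blue, and RTN4R and NOTUM (dark blue) and ARRDC4 (red) cross the DMSO level at 0.

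Of the 57 genes higher than DMSO with both treatments, 43 were called higher with the combination than with fenofibrate, 1 lower (HSD17B7) and 13 were not called. Of the 4 genes lower with both, 2 fell further when ezetimibe was added. PCDH17, a cell adhesion protein of the protocadherin family, had 212, 211 and 232 in DMSO, 108, 104 and 113 with fenofibrate and 19.7, 15.8 and 11.5 with the combination. The combination libraries lay below all fenofibrate libraries, 6.93-fold lower in the mean (log2 difference -2.75 ± 0.19, SE; limma, adjusted p = 5.69e-06). CALB1, a calcium-binding protein, was 2.49-fold lower, with 91.2, 117 and 119 with fenofibrate and 41.6, 47.3 and 42.1 with the combination.

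The other genes lower with both treatments, CENPE and ZNF714, were not called and varied widely between replicates. CENPE, a kinesin of the mitotic kinetochore, had 704, 436 and 724 with fenofibrate and 279, 802 and 576 with the combination, so that fenofibrate replicate 2 and combination replicate 1 were the lowest of their groups. The same 2 libraries were the lowest of their groups for ZNF714, ALDH1L2, FAM129A and STARD4. For other genes, among them DDIT3, TRIB3, GDF15, NUPR1, HMOX1 and BEX2, they were the highest of their groups. Over the 65 genes, the deviations of these 2 libraries from their group means had a correlation of 0.65. Without both of them 53 genes were called, 46 higher and 7 lower, and the median difference was 0.95.

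The 15 genes that were not called differ in how tightly their difference was measured. In 11 the 95% interval lay within -1 to 1 on the log2 scale, and the exceptions were STARD4, GPR89B, CENPE and ZNF714. CLCN6, a chloride and proton exchanger of endosomes, had 673, 569.9 and 612 with fenofibrate and 582, 599.5 and 625 with the combination (log2 difference -0.04, 95% interval -0.26 to 0.19). The intervals were -0.46 to 0.50 for APOL6, -0.45 to 0.53 for SHC2, -0.64 to 0.49 for PCSK4 and -0.72 to 0.50 for TMEM150A. The rest, namely GPR89B, TNFRSF14, PIK3CD, AHNAK2, ANO9 and MT1M, had log2 differences from -0.11 (MT1M) to 0.35 (GPR89B). CLCN6, APOL6, SHC2, PCSK4 and TMEM150A had the smallest differences of all, and the intervals still allow changes of the sizes given.

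Ezetimibe alone also moved most of these genes, since 49 of the 65 were in its table. Beside this, 11 of the 37 genes listed with fenofibrate but not with the combination were in it. Of all 3647 genes listed in the series, 472 were. Of the 49, 39 were called higher with the combination than with fenofibrate, 2 lower and 8 were not called. Of the 16 not listed with ezetimibe, 5 were called higher, 4 lower (RTN4R, NOTUM and HSD17B7 among them) and 7 were not called. These 16 hold all 4 genes with the treatments on opposite sides of DMSO, 3 called lower and ARRDC4 called higher. The choice of genes built in their gaps, so the split by listing with ezetimibe is a description only. Over all 65 genes, 67.7% were called higher and 9.23% lower. For the 46 genes higher than DMSO with fenofibrate and the combination and listed with ezetimibe, the ezetimibe mean was above the fenofibrate mean in 39 and the combination mean was above the ezetimibe mean in 42. In 35 of the 46 every combination library was above every library of either single drug. The 46 had to pass the authors' thresholds against DMSO in all 3 tables, and no such counts over other genes are given. The counts are therefore a description only. All 3 treatments were compared with the same DMSO libraries.

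The genes with the largest rises differed in how far ezetimibe alone took them. ATF3 had 161, 166 and 158 normalised counts with ezetimibe alone, close to its level with fenofibrate alone and far under the 2827 ± 278 (SD, n = 3) of the combination. GDF15 had 2390.2, 2447 and 2429.7 and DDIT3 378, 307 and 335, both likewise far under the combination. KLHDC7B had 630.5, 629 and 554 and CYP1A1 1395, 1457 and 1372, between their fenofibrate and combination levels. STARD4 had 392, 337 and 333, and PCDH17, lower with every treatment, had 83.3, 59.7 and 79.6.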

How the data were processed

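Libraries were grouped by their labels, 3 per group. Per the submitters' processing notes, the authors used fastp, featureCounts 1.5.0-p3, HISAT2 2.0.5 and build hg38, and the sources used here do not give the tool of their comparison. Per the file headers, each table holds a normalised signal for 6 libraries and the authors' log2 fold change and p-value for each gene. Each table was scaled on its own and keeps only genes past the authors' thresholds. All 65 positions were equal to those of GENCODE release 29, and 21 genes overlap a gene on the other strand.

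Fenofibrate values were multiplied by the mean ratio of the DMSO columns of the combination table to those of the fenofibrate table, and ezetimibe values likewise. Limma 3.58.1 (with trend, in R 4.3.3) compared combination with fenofibrate on log2(value + 1), which understates the change of low genes, with a 2-sided test, Benjamini-Hochberg adjustment over the 65 genes and a threshold of 0.05. Folds are ratios of means. An exact permutation test of 3 against 3 cannot give a 2-sided p under 0.1 and was not used. The planned count models (edgeR, DESeq2) were not run, because the fenofibrate table has too few genes of low value for a recovery of whole reads to be checked. The fit was tested on simulated data.

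The genes and lists were chosen with earlier results of these data known. Genes named with values were the 10 largest differences in each direction among called protein-coding genes without overlap and with a mean of 50 or more, all members of the sterol, fatty acid and ATF4 lists, up to 4 of each other list, genes of opposite sign against DMSO, and the 5 smallest differences. Some genes that this rule names are not reported here, and 3 of the 65 are left out of the figures. PPARA and PKM were to be named if in both tables, and they were not. Of the other lists, those for PPARA, LXR, the unfolded protein response, immediate early genes, S phase, p53 and autophagy had no gene in both tables. The alternatives were other added values (0.5 and 10), a filter at a mean of 50, other scalings, DMSO libraries in the fit, no trend, a replicate block and leaving out each library. Leaving out 2 libraries together was chosen after seeing the data.

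The labels do not say whether the replicate numbers pair the samples. The deviations of same-numbered fenofibrate and combination libraries had correlations of -0.68, -0.60 and -0.23 over the 65 genes. With 3 libraries per group, these correlations cannot settle whether there was a pairing.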

Additional observations from a re-analysis of the deposited data

How the results depend on the processing

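The planned edgeR and DESeq2 fits were not run. Over 17 alternative limma fits, 46 of the 50 called genes were called in every one, and the count called ran from 47 to 53. Leaving out 1 library gave 47 to 50 called, 42 to 44 higher and 5 to 6 lower. It gave medians of 1.00 (without fenofibrate replicate 2) to 1.11 over all genes, 1.75 (without combination replicate 2) to 2.06 for the ATF4 list and -0.32 to -0.29 for the sterol list. Without fenofibrate replicate 2 and combination replicate 1 together the median over all genes was 0.95. With the tables not rescaled, which shifts every difference by 0.04, the sterol median was -0.27 and STARD4 was called (0.55, adjusted p = 0.0471 by limma). STARD4 was also called with the DMSO libraries in the fit (adjusted p = 0.0358 by limma). The cause of these shifts was not tested beyond the change of scale.

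With the replicate number as a block, 42 genes were called higher and 5 lower. HSD17B7 (-0.44, adjusted p = 0.119 by limma), PIP5KL1 (0.0621) and AC124798.1 (0.0569) were lost, and no other call changed. MT1G and AC124798.1 were also lost without fenofibrate replicate 1, without fenofibrate replicate 3 and without combination replicate 1, and PIP5KL1 without fenofibrate replicate 1. AHNAK2 was gained without combination replicate 1 (adjusted p = 0.0383 by limma).

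Sign changes were seen only in genes that were not called. CLCN6 became 0.0013 with the tables not rescaled. Leaving out 1 library gave APOL6 -0.14 to 0.15, CENPE -0.59 to 0.17, CLCN6 -0.092 to 0.028, PCSK4 -0.26 to 0.12, SHC2 -0.12 to 0.26 and TMEM150A -0.28 to 0.10. Over all alternatives GPR89B ran from -0.14 to 0.74, ANO9 from -0.050 to 0.39, MT1M from -0.43 to 0.27 and ZNF714 from -0.64 to 0.086. Without the 2 libraries together APOL6 was -0.0073 and SHC2 -0.053. Depth per library is unknown, and a gene outside the tables has no value.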
